A study of Homo sapiens with 10 samples.

Results

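The genes described here encode the protein parts of the spliceosomal small nuclear ribonucleoproteins (snRNPs) and their close relatives. The rule that picks them uses only the symbol and the annotation, and it was set up with earlier results of these data known. Entries of the count table that GENCODE 29 annotates as protein coding were kept where the symbol began with SNRP, with SF3A or SF3B and a digit, with PRPF and a digit, with U2AF, or with LSM and a digit. This gave 51 genes of 94946 entries, of which 45574 carry a GENCODE 29 identifier. By role they are 8 genes of the Sm core, 5 of the U1 snRNP, 11 of the U2 snRNP, 4 of the U2AF family, 10 of the tri-snRNP and of factors that act at later steps, 7 of the U6 LSm ring and 6 other LSm genes. The last group holds relatives that work outside splicing as well, and the mRNA of each gene was measured, not its protein or the small nuclear RNAs.

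The spliceosome removes introns from precursor mRNAs. U1 recognises the 5′ splice site, U2AF the 3′ splice site and U2 the branch site, after which the U4/U6.U5 tri-snRNP joins and the complex is rearranged for catalysis. A ring of Sm proteins sits on U1, U2, U4 and U5 RNA, and a ring of LSm proteins sits on U6 RNA.

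The samples are libraries of total RNA from PC3, a human prostate cancer line that grows without androgen, and from the extracellular vesicles (EVs) that these cells release. The series set vesicles collected in 3 centrifugations side by side. The spins carry the names 2.8K, 10K and 100K in the labels, which give no unit, and their pellets EV 2.8K, EV 10K and EV 100K have 3 libraries each, beside 1 library of whole PC3 cells. All come from this 1 line, with no genetic change or drug named. The labels' protocols give fetal bovine serum in the medium, and the whole cells are the only reference.

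Total counts ranged from 5424964 to 28735081 per library. Nothing states whether the 3 sets were grown separately, so p-values weigh differences only against the spread of these libraries, which may be technical. Of the epithelial markers fixed for the labelled cell type, the keratins KRT8, KRT18 and KRT19 were high, while EPCAM lay between 0 and 10.7 CPM (counts relative to a library total of 1e+06, scaled by TMM factors) and CDH1 between 0 and 11.8, with no CDH1 count in 6 of the 10 libraries. The summed level of the 5 markers was 1730.0 to 2110.0 CPM in EV 2.8K, 1510.0 to 1940.0 in EV 10K, 796 to 893 in EV 100K and 1360.0 in cells. The prostate genes KLK2, KLK3 and FOLH1 and the leukocyte genes PTPRC and CD3E had no count in any library. The sum of 5 blood and serum genes lay between 0 and 3.91 CPM in the EV libraries. The epithelial sum was lower in EV 100K, as were many of the splicing genes, and its part in the results was not tested.

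As a set, the 51 mRNAs took 0.637% ± 0.0184 (SD, n = 3) of all counts of the EV 2.8K libraries, 0.545% ± 0.0230 of EV 10K, 0.423% ± 0.0282 of EV 100K and 0.708% of the cell library. The 3 pellets did not overlap in this share. Behind it were 22471 to 98422 counts per EV library. The gene U2AF1L4, a relative of the small U2AF subunit, had no count in any of the 10 libraries, which allows up to 3 counts per library. The other 50 genes passed the filter on low counts and were tested.

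From EV 2.8K to EV 100K most of the splicing mRNAs that changed fell, and 7 rose, by 1.8-fold (LSM4) to 7.6-fold (PRPF38B). By edgeR's quasi-likelihood test with Benjamini-Hochberg adjustment over 15525 genes, 25 of the 50 were lower in EV 100K at an adjusted p under 0.05, 7 were higher and 18 did not pass. Among all genes tested, 13.8% were lower and 12.0% higher, so the share higher (14.0% of the 50) was near that of all genes. The median log2 fold change of the 50 genes was -1.14, against -0.06 for all genes. The 7 that rose were PRPF38B, LSM14B, LSM11, SNRPD1, SNRPE, PRPF38A and LSM4, and the lowest were SNRPD2, SNRPB2, PRPF31, SF3B5 and PRPF8. In 29 genes every EV 100K library lay below every EV 2.8K library, and in 8 every one lay above (20.8% and 23.9% of all genes). In pelleted material, fewer vesicles of a kind and less of an RNA per vesicle cannot be told apart.

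**Figure D1:**
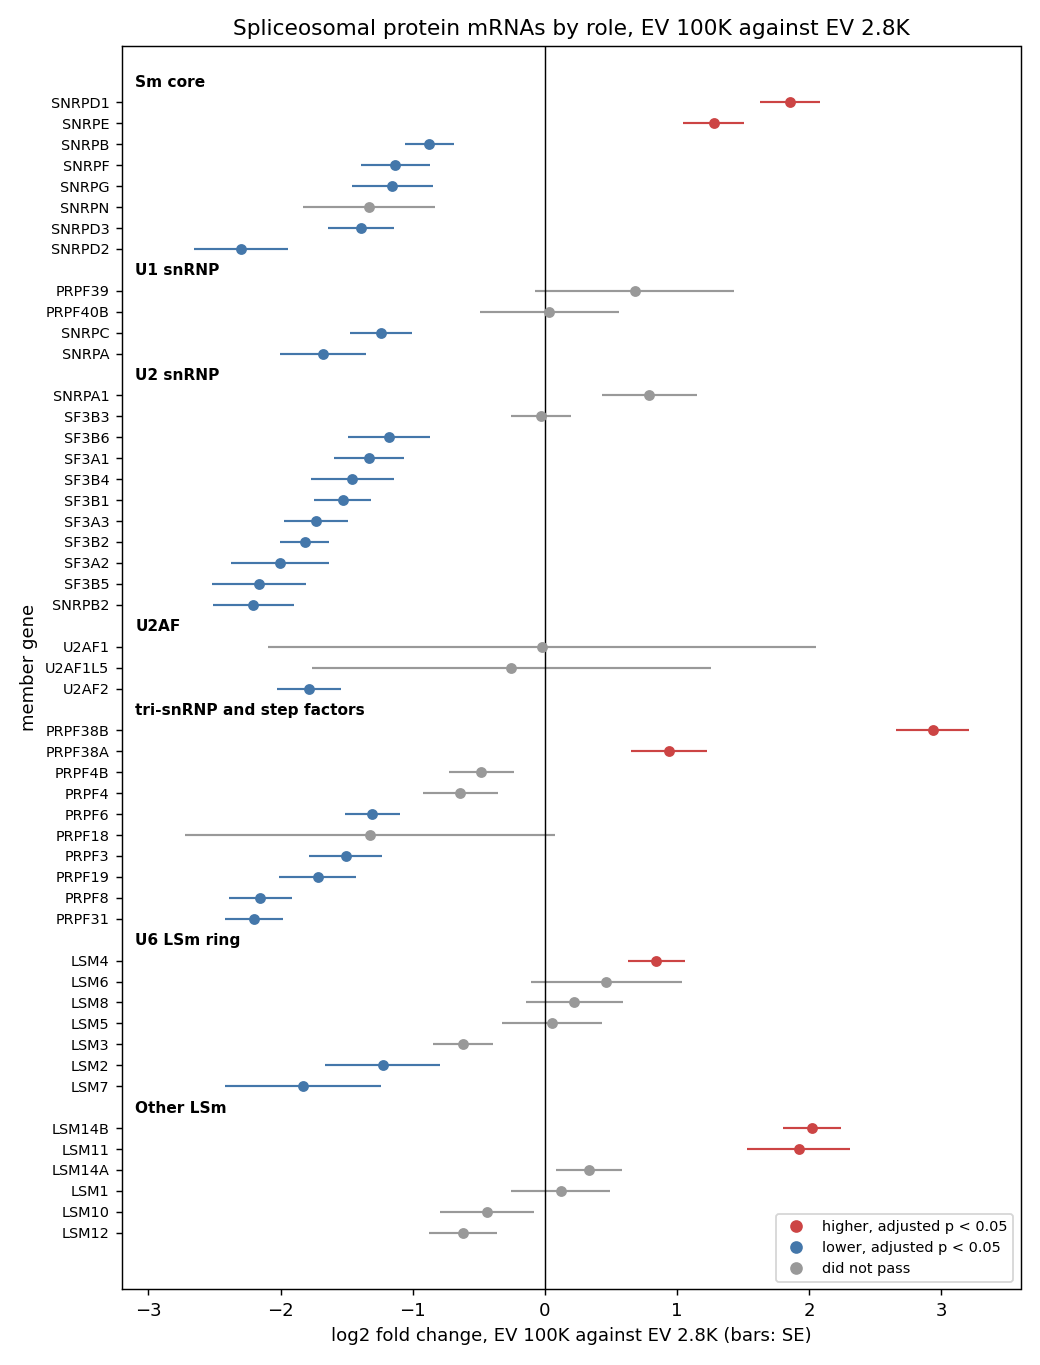
Log2 fold change of 49 of the 50 tested genes in EV 100K against EV 2.8K (x axis; bars are standard errors), grouped by role on the y axis. Red points were higher and blue points lower at an adjusted p under 0.05, and grey points did not pass; no U1 or U2 gene is red, and 7 genes of 4 roles are.

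The Sm core was split. SmD1 (SNRPD1) and SmE (SNRPE), which share a ring with the other Sm proteins, rose. Of the 8 genes 5 fell and SNRPN did not pass, where 12.0% of all genes tested were higher and 13.8% lower. The summed level of the 8 genes was 976.8 ± 150.3 CPM for EV 2.8K, 1229 ± 87.2 for EV 10K and 1059 ± 268.6 for EV 100K. These totals lay closer together than the levels of the genes within them.

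SNRPD1 (chr18:21612267-21633524, plus strand, GRCh38) stood at 162, 154 and 178 CPM for EV 2.8K, at 447, 481 and 399 in EV 10K and at 851, 514 and 452 in EV 100K, with 141 in cells. All 6 EV 10K and EV 100K libraries lay above the EV 2.8K libraries and the cells, and EV 10K and EV 100K overlapped. The log2 fold change of EV 100K against EV 2.8K was 1.86 (SE 0.23, adjusted p = 7.75e-06). SNRPE (chr1:203861603-203870550, plus strand) had 52.0, 61.6 and 67.8 CPM for EV 2.8K, 126, 109.6 and 109.9 in EV 10K, 184, 119 and 144 in EV 100K and 45.0 in cells. It showed the same layout, with a log2 fold change of 1.28 (SE 0.23, adjusted p = 0.000402).

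SNRPD2 (chr19:45687454-45692569, minus strand), which encodes SmD2, the direct partner of SmD1 in the ring, went the other way. Its levels were 344, 172 and 102 CPM for EV 2.8K, 96.4, 118 and 63.4 in EV 10K, 46.5, 42.4 and 38.3 in EV 100K and 48.9 in cells. The first EV 2.8K library was far above the others of its pellet, yet all 3 lay above EV 100K, and the log2 fold change was -2.30 (SE 0.36, adjusted p = 0.000102). SNRPB (chr20:2461634-2470853, minus strand), the gene of SmB and the most abundant of the 51 per length in cells, had 218, 198 and 243 CPM for EV 2.8K, 237, 246 and 271 in EV 10K, 122, 118 and 125 in EV 100K and 223 in cells. Only EV 100K stood apart, and the log2 fold change was -0.87 (SE 0.19, adjusted p = 0.00176). SNRPD3 and SNRPF, the genes of SmD3 and SmF, had log2 fold changes of -1.39 and -1.13 and passed as well. SNRPG, the gene of SmG, had 100.3, 60.5 and 46.5 CPM for EV 2.8K, 54.3, 55.3 and 58.6 for EV 10K, 31.3, 35.8 and 27.3 for EV 100K and 49.8 in cells. EV 100K lay below all other libraries (log2 -1.15), and the call ended without the third EV 100K library (adjusted p = 0.0532). SNRPN, whose protein is close to SmB, had 10.4, 21.7 and 27.2 CPM for EV 2.8K, 19.4, 19.2 and 22.5 for EV 10K, 8.85, 7.34 and 7.70 for EV 100K and 9.97 in cells. EV 100K was lowest here too, the first EV 2.8K library lying close above it, and the difference from EV 2.8K did not pass (log2 -1.33, SE 0.50, adjusted p = 0.0578).

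Within the counts of the 8 Sm core genes, SNRPD1 made up 14.1%, 17.1% and 20.4% in the EV 2.8K libraries, 37.0%, 36.3% and 34.6% in EV 10K and 62.2%, 55.3% and 51.4% in EV 100K. The cell library had 19.1%, within the range of EV 2.8K, and the 3 pellets did not overlap.

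**Figure D2:**
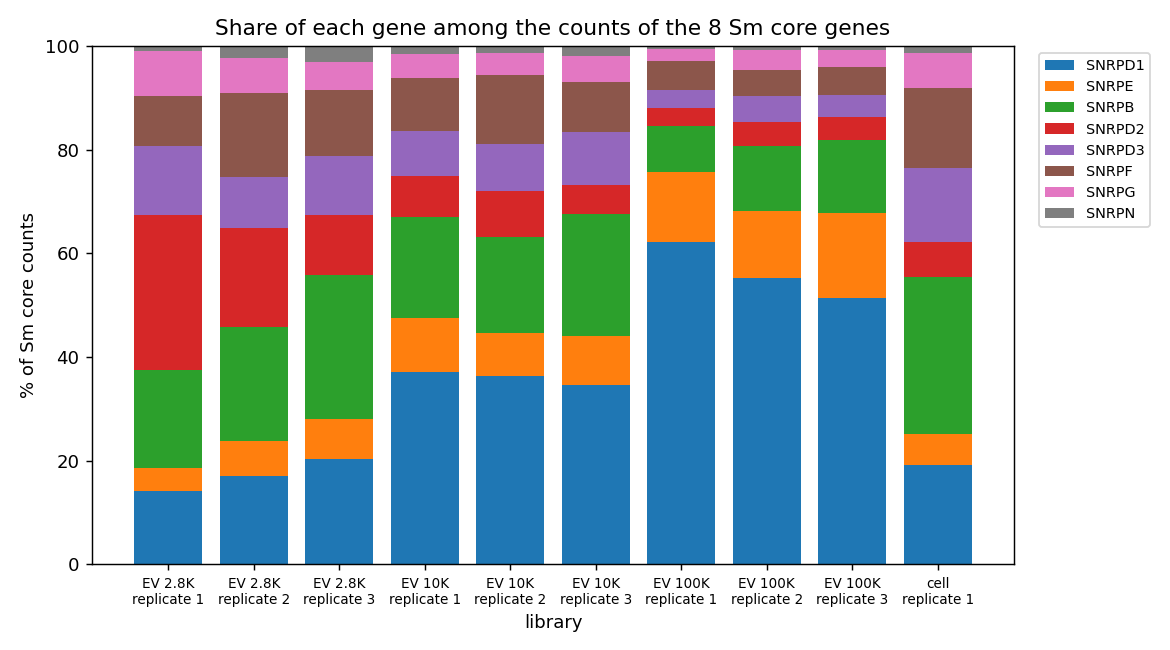
Share of each of the 8 genes among all counts of the Sm core (y axis, percent) in each of the 10 libraries (x axis). The SNRPD1 segment grows from 14.1 to 20.4% in EV 2.8K to 51.4 to 62.2% in EV 100K, and in the cell bar it is 19.1%.

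A feature of some Sm proteins is a tail of alternating glycine and arginine, which is methylated and bound by the assembly machinery. Counted in the coding sequence, glycine codons directly followed by arginine codons numbered 9 in SNRPD1, 7 in SNRPB, 6 in SNRPN and 5 in SNRPD3, 1 each in SNRPD2, SNRPE and SNRPG, and 0 in SNRPF. The genes with such tails therefore included the riser SNRPD1 and the fallers SNRPB and SNRPD3, and the riser SNRPE has no such tail. The ends of SNRPD1 (coding bases 241 to 360) and SNRPD3 (coding bases 262 to 381), both from the GENCODE 29 transcripts, are shown because these tailed genes moved in opposite directions. Capitals mark the glycine-arginine codon pairs.
SNRPD1: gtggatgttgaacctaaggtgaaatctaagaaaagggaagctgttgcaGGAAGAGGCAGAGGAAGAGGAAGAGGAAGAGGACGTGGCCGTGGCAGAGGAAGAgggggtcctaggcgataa
SNRPD3: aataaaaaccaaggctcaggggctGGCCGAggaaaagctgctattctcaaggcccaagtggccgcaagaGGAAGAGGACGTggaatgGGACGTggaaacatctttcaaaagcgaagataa

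SNRPB and SNRPN are close in sequence, and a matching stretch of both is shown (coding bases 91 to 180, GENCODE 29 transcripts), with the 9 bases that differ in capitals. Over the whole coding sequence the aligned pair was 78.7% identical, and of the 50-base windows of SNRPN 25.8% occurred in another gene, mostly in SNURF, which is encoded on shared transcripts. Of the windows of SNRPB 15.7% occurred in another gene, and the overlapping entry AL049650.1 alone held 15.7%.
SNRPB: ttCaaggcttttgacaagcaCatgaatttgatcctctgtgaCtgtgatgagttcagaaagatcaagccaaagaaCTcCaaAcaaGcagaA
SNRPN: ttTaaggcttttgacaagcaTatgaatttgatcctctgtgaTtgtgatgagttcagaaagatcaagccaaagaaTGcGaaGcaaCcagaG

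Of the 5 U1 genes that the symbol rule takes in, 3 fell and none rose (13.8% and 12.0% of all genes tested). SNRNP70, which also encodes a U1 protein, falls outside the rule and is counted among the further spliceosome genes below. It had 219.6 ± 103.4 CPM for EV 2.8K and 245.8 ± 45.7 for EV 100K and did not pass (log2 0.14, SE 0.26, adjusted p = 0.773). It is named after its value was seen. SNRPA (chr19:40750637-40765389, plus strand), the U1-A protein that binds a stem loop of U1 RNA, had 47.1, 42.7 and 50.7 CPM for EV 2.8K, 56.4, 36.2 and 46.3 in EV 10K, 17.1, 13.8 and 13.6 in EV 100K and 61.9 in cells. EV 2.8K and EV 10K overlapped and EV 100K lay below both (log2 against EV 2.8K -1.68, SE 0.33, adjusted p = 0.00078). SNRPC (chr6:34757406-34773794, plus strand), the U1-C protein that helps to hold the 5′ splice site, had 260.4, 181 and 152 CPM for EV 2.8K, 249, 212 and 186 in EV 10K, 94.8, 87.4 and 72.3 in EV 100K and 161 in cells, with the same layout (log2 -1.24, SE 0.23, adjusted p = 0.00056). The U1 factors PRPF40B (log2 0.03, SE 0.53) and PRPF39 (0.68, SE 0.76) did not pass, and the libraries of both spread widely.

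In the U2 group 9 of 11 genes fell and none rose from EV 2.8K to EV 100K (13.8% and 12.0% of all genes tested). The group median was -1.53. Its summed level was 1984 ± 175.2 CPM for EV 2.8K, 1447 ± 37.8 for EV 10K and 802 ± 20.8 for EV 100K, with 2236 in cells. The fallers included all 3 genes of SF3A, a subcomplex of the U2 snRNP (log2 -1.33 to -2.01). They also included 5 of the 6 genes that the symbol rule takes in from SF3B, which clamps the branch site. PHF5A, which also encodes an SF3B protein, falls outside the rule and is counted among the further spliceosome genes below. It did not pass and its level was low and uncertain (log2 1.05, SE 1.14, adjusted p = 0.583). PHF5A is named after its value was seen.

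SNRPB2 (chr20:16729961-16742563, plus strand), the U2-B″ protein that binds U2 RNA, had 77.4, 75.3 and 101 CPM for EV 2.8K, 78.5, 88.5 and 46.5 in EV 10K, 19.4, 20.4 and 16.0 in EV 100K and 98.5 in cells. All EV 100K libraries were below all others, and the log2 fold change was -2.21 (SE 0.31, adjusted p = 2.74e-05). SF3B5 (chr6:144094881-144095573, minus strand), a small SF3B subunit from a gene of 1 exon, had 96.8, 53.5 and 52.2 CPM for EV 2.8K, 40.0, 71.0 and 52.4 in EV 10K, 11.2, 15.2 and 19.2 in EV 100K and 28.9 in cells. EV 100K was again lowest (log2 -2.17, SE 0.36, adjusted p = 0.000158), and here the other 6 EV libraries lay above the cells.

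SF3B1 (chr2:197389784-197435091, minus strand), the large subunit that holds the branch helix and is mutated in several cancers, had 243, 353 and 374 CPM for EV 2.8K, 200.1, 214 and 265 in EV 10K, 119.9, 108 and 113 in EV 100K and 364 in cells. The pellets descended, EV 2.8K and EV 10K overlapping (EV 100K against EV 2.8K log2 -1.53, SE 0.21, adjusted p = 2.93e-05). SF3B6 (chr2:24067584-24076443, minus strand), the subunit that contacts the branch adenosine, had 123, 110.0 and 51.7 CPM for EV 2.8K, 49.7, 81.6 and 62.9 in EV 10K, 44.1, 39.5 and 43.8 in EV 100K and 65.5 in cells. The third EV 2.8K library sat near the EV 100K values without overlapping them (log2 -1.18, SE 0.31, adjusted p = 0.0083).

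A pair of the U2 genes that the symbol rule takes in did not follow. SF3B3, which forms the scaffold of SF3B with SF3B1, had 124, 195 and 232 CPM for EV 2.8K, 154, 162 and 135 in EV 10K, 195, 171 and 183 in EV 100K and 322 in cells, so that all 9 EV libraries lay below the cells, with EV 100K above EV 10K and inside the range of EV 2.8K (EV 100K against EV 2.8K log2 -0.03, SE 0.23, adjusted p = 0.958). SNRPA1 (chr15:101281510-101295282, minus strand), the U2-A′ partner of U2-B″, had 16.5, 50.2 and 32.8 CPM for EV 2.8K, 67.7, 58.8 and 47.1 in EV 10K, 63.5, 68.5 and 42.8 in EV 100K and 45.1 in cells. Its log2 fold change was 0.79 (SE 0.36, adjusted p = 0.121) with overlapping groups, while that of its partner SNRPB2 was -2.21.

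Of the U2AF family only the large subunit could be measured well. U2AF2 (chr19:55654146-55674715, plus strand), which binds the polypyrimidine tract, had 577, 333 and 304 CPM for EV 2.8K, 239.9, 219.8 and 206 in EV 10K, 98.8, 121 and 139 in EV 100K and 342 in cells. The 3 pellets stepped down without overlap, and the log2 fold change of EV 100K against EV 2.8K was -1.78 (SE 0.24, adjusted p = 2.28e-05). U2AF1 (chr21:43092956-43107587, minus strand), the small subunit that reads the AG of the 3′ splice site, had 0.765, 0 and 4.11 CPM for EV 2.8K, 0, 0.126 and 0 in EV 10K, 1.55, 1.10 and 2.25 in EV 100K and 5.63 in cells. The annotation also holds U2AF1L5 (chr21:6484623-6499261), and the coding sequences of both are 723 bases long and 100.0% identical. U2AF1L5 had 0, 2.21 and 11.1, then 1.01, 18.6 and 0.475, then 5.20, 3.30 and 2.89 CPM, with 5.08 in cells. Within EV 10K alone U2AF1L5 ranged from 0.475 to 18.6 CPM. Of the 50-base windows of U2AF1, 94.3% also occur in U2AF1L5, and the labels do not state how reads matching several genes were counted. Neither level is therefore taken as a measure of the small subunit. The same stretch of both (coding bases 91 to 180, GENCODE 29 transcripts) is printed to show this, with no capitals because no base differs.
U2AF1: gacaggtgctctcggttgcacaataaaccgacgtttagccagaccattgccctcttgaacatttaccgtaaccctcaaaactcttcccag
U2AF1L5: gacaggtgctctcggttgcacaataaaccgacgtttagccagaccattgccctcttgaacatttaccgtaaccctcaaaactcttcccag

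Among the 10 tri-snRNP and step factors, 5 fell, 2 rose and 3 did not pass, where 13.8% of all genes tested fell and 12.0% rose. The riser PRPF38B (chr1:108692323-108701803, plus strand), a relative of the spliceosomal protein PRPF38A, showed the largest change of the 50 genes. It had 68.6, 77.3 and 105 CPM for EV 2.8K, 461, 248 and 362 in EV 10K, 858, 472 and 621 in EV 100K and 77.8 in cells. The pellets rose in order without overlap, EV 2.8K lying around the cell level, and the log2 fold change of EV 100K against EV 2.8K was 2.94 (SE 0.27, adjusted p = 4.47e-07). PRPF38B alone took 1.39% ± 0.460 (SD, n = 3) of the counts of all members for EV 2.8K, 6.31% ± 1.83 for EV 10K, 14.2% ± 2.62 for EV 100K and 1.33% in cells. PRPF38A, which joins the complex before activation, had 39.5 ± 12.8 CPM for EV 2.8K, 75.3 ± 17.1 for EV 10K and 77.0 ± 9.66 for EV 100K (log2 0.94, SE 0.29, adjusted p = 0.0211). Its call ended without the first EV 2.8K, the first EV 100K or the second EV 100K library, and with library totals in place of TMM factors (adjusted p = 0.0511 to 0.0977).

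PRPF8 (chr17:1650629-1684882, minus strand), the large U5 protein at the heart of the catalytic centre, had 458, 312 and 294 CPM for EV 2.8K, 175, 148 and 148 in EV 10K, 59.6, 94.7 and 88.2 in EV 100K and 519 in cells. The pellets stepped down without overlap and all 9 lay below the cells (EV 100K against EV 2.8K log2 -2.15, SE 0.24, adjusted p = 2.61e-06). PRPF31 (chr19:54115410-54131719, plus strand), a U4/U6 protein whose mutation causes retinitis pigmentosa, had 419, 355 and 259 CPM for EV 2.8K, 279, 224 and 309 in EV 10K, 69.7, 79.1 and 79.1 in EV 100K and 271 in cells. Here EV 2.8K, EV 10K and cells shared a range and EV 100K lay well below it (log2 -2.20, SE 0.22, adjusted p = 9.78e-07). PRPF3 (chr1:150321476-150353195, plus strand), another U4/U6 protein, had 152, 114 and 105 CPM for EV 2.8K, 85.6, 61.6 and 43.4 in EV 10K, 46.8, 42.8 and 42.8 in EV 100K and 71.5 in cells. EV 2.8K stood above the other pellets, which overlapped (log2 -1.51, SE 0.28, adjusted p = 0.000458).

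PRPF19 (chr11:60890730-60906588, minus strand), the ubiquitin ligase of the PRP19 complex, had 100.1, 64.7 and 142 CPM for EV 2.8K, 90.3, 108 and 117 in EV 10K, 25.9, 31.0 and 37.7 in EV 100K and 185 in cells. All EV libraries lay below the cells, and EV 100K lay below the other pellets (log2 -1.72, SE 0.29, adjusted p = 0.000228). PRPF6, which holds the tri-snRNP together, fell by 1.31 on the log2 scale (adjusted p = 0.000119). The kinase PRPF4B (log2 -0.48), the U4/U6 protein PRPF4 (-0.64) and the late factor PRPF18 (-1.32, adjusted p = 0.572) did not pass, and PRPF18 had at most 9.03 CPM in any library, with 37.1% of its 50-base windows shared with the overlapping entry AL157392.5.

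The U6 LSm ring held 1 riser and 2 fallers among 7 genes (12.0% and 13.8% of all genes tested). LSM4 (chr19:18306230-18323274, minus strand) had 144, 155 and 136 CPM for EV 2.8K, 231, 180.4 and 131 in EV 10K, 266, 275 and 249 in EV 100K and 80.4 in cells. EV 100K lay above every other library and all EV libraries lay above the cells (EV 100K against EV 2.8K log2 0.84, SE 0.21, adjusted p = 0.00656). LSM7 (log2 -1.83, SE 0.59, adjusted p = 0.0276) and LSM2 (log2 -1.23, SE 0.44, adjusted p = 0.0458) fell, both from levels under 50 CPM in every library, and these calls were fragile. LSM2 lost its call in 12 of 15 other settings (adjusted p = 0.0554 to 0.217) and LSM7 without the second EV 2.8K, the first EV 100K or the second EV 100K library (0.0733 to 0.15). LSM3, LSM5, LSM6 and LSM8 had log2 fold changes between -0.62 and 0.47 and did not pass. With so few genes and fragile calls, nothing particular to the ring is read from these counts.

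The other LSm genes held 2 risers and no faller among 6 (12.0% and 13.8% of all genes tested). With so few genes, nothing particular to the group is read from these counts. LSM14B (chr20:62122461-62135378, plus strand), whose protein belongs to cytoplasmic messenger particles that repress translation, had 75.8, 84.1 and 63.7 CPM for EV 2.8K, 145, 173 and 115 in EV 10K, 339.8, 300.2 and 280.3 in EV 100K and 58.4 in cells. The pellets rose in order without overlap (EV 100K against EV 2.8K log2 2.02, SE 0.22, adjusted p = 2.02e-06). Its relative LSM14A, 55.9% identical in the aligned coding sequence, had 83.8 ± 14.9, 82.4 ± 22.0 and 107 ± 13.6 CPM in the 3 pellets and did not pass (log2 0.34, SE 0.25, adjusted p = 0.386).

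LSM11 (chr5:157743695-157760709, plus strand), which with LSM10 replaces SmD1 and SmD2 in the U7 snRNP that trims histone mRNAs, had 15.0, 27.4 and 8.91 CPM for EV 2.8K, 27.8, 19.8 and 22.8 in EV 10K, 70.5, 68.7 and 58.1 in EV 100K and 21.9 in cells. Only EV 100K stood apart, above all other libraries (log2 against EV 2.8K 1.92, SE 0.39, adjusted p = 0.00118). Its U7 partner LSM10 had 46.9 ± 18.0, 51.1 ± 16.2 and 35.0 ± 8.63 CPM and did not pass (log2 -0.44, SE 0.36, adjusted p = 0.432). LSM1, which replaces LSM8 in the cytoplasmic ring of mRNA decay, had 29.5, 54.8 and 16.2 CPM for EV 2.8K, 56.0, 46.3 and 50.3 in EV 10K, 39.2, 31.9 and 39.6 in EV 100K and 33.1 in cells, the EV 2.8K libraries spreading over nearly the whole range (log2 0.12, SE 0.37, adjusted p = 0.874).

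**Figure D3:**
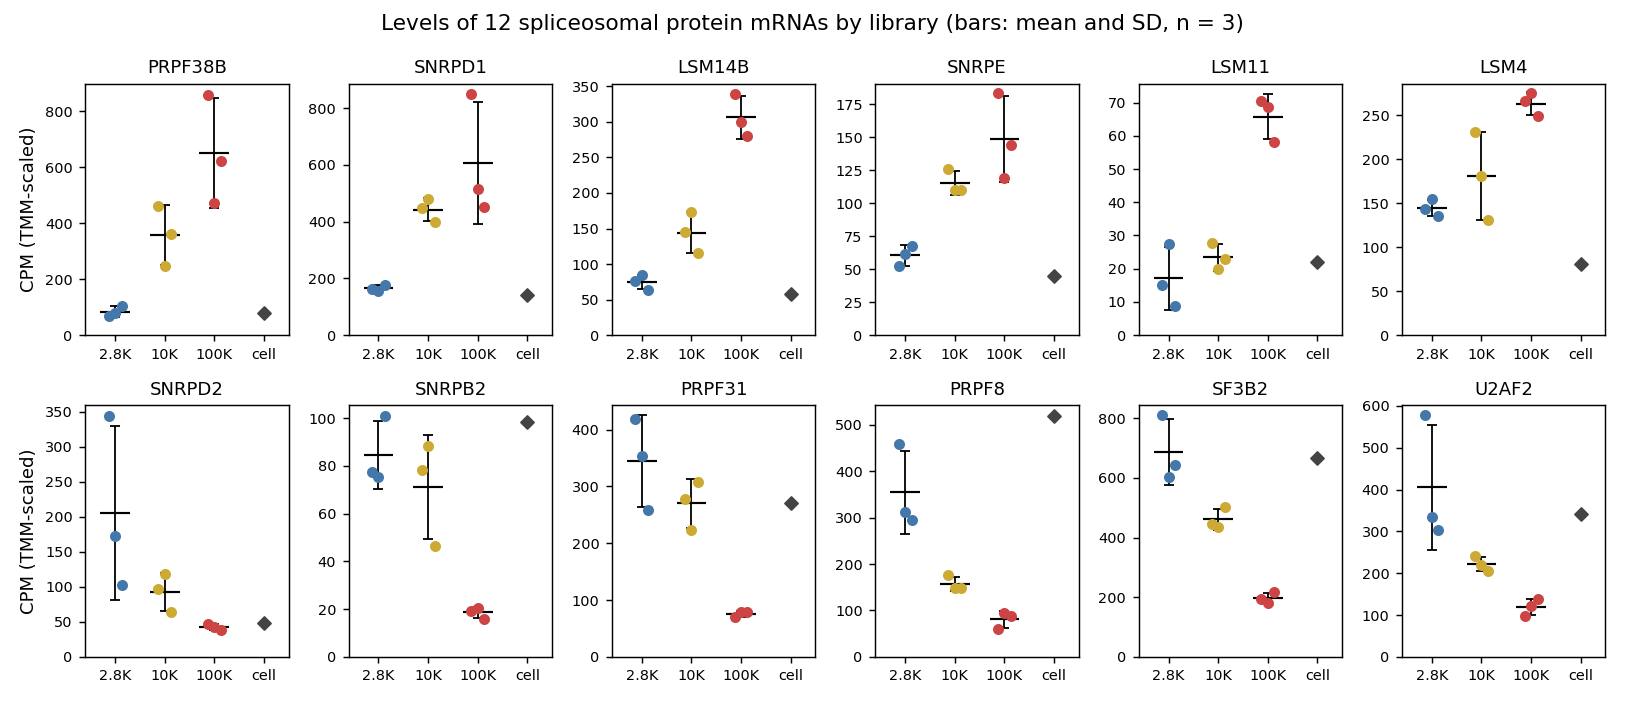
Level of 12 genes in each library (y axis, TMM-scaled CPM, each panel with its own scale from 0), by pellet and cells (x axis). Points are libraries, black bars the mean and SD of 3 libraries, and the diamond the single cell library; the upper row shows 6 of the 7 risers and the lower row 6 fallers, with EV 100K at the end of the range in every panel except SNRPD1 and SNRPE, where it overlaps EV 10K.

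The step from EV 2.8K to EV 10K involved 7 of the 50 genes. By edgeR's test 4 of 50 were higher and 3 lower (4.15% and 2.22% of all genes tested), and the median was -0.12 against -0.01 for all genes. PRPF38B (log2 2.08, SE 0.27, adjusted p = 7.64e-05), SNRPD1 (1.41, SE 0.22, adjusted p = 0.000612), LSM14B (0.94, SE 0.21, adjusted p = 0.011) and SNRPE (0.91, SE 0.23, adjusted p = 0.0213) were higher. PRPF8 (-1.19, SE 0.23, adjusted p = 0.00374), PRPF3 (-0.97, SE 0.27, adjusted p = 0.0394) and U2AF2 (-0.88, SE 0.24, adjusted p = 0.0314) were lower. Of these calls, that of PRPF3 ended in 8 of 15 other settings, 7 of them the loss of 1 library (adjusted p = 0.0512 to 0.196), that of U2AF2 in 5 (0.0701 to 0.152), that of SNRPE in 3 (0.0618 to 0.0857) and that of LSM14B in the fit on the 6 libraries compared (0.0532). The calls of PRPF3 and U2AF2 were both lost without the first EV 2.8K, the second EV 10K or the third EV 10K library, that of PRPF3 also without the second EV 2.8K or any EV 100K library, and those of U2AF2 and SNRPE without the first EV 10K library. All 3 EV 10K libraries lay above all EV 2.8K libraries in 5 genes and below them in 8 (11.7% and 9.7% of all genes). The number lower by the test was 1 without the second or the third EV 10K library and 5 without the third EV 2.8K library.

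The step from EV 10K to EV 100K involved more genes, nearly all downward. Here 20 of 50 were lower and 3 higher (7.23% and 3.7% of all genes tested), with a median of -0.70 against 0.01 for all genes. The lowest were SNRPB2 (log2 -1.94, SE 0.30, adjusted p = 0.000384), SF3B5 (-1.84, SE 0.35, adjusted p = 0.00207) and PRPF31 (-1.84, SE 0.22, adjusted p = 3e-05). LSM11 (1.48, SE 0.39, adjusted p = 0.0177), LSM14B (1.08, SE 0.21, adjusted p = 0.00252) and PRPF38B (0.86, SE 0.26, adjusted p = 0.0384) were higher, while SNRPD1 (0.45, SE 0.22, adjusted p = 0.24) and SNRPE (0.36, SE 0.23, adjusted p = 0.394) did not pass. All EV 100K libraries lay above all EV 10K libraries in 7 genes and below them in 28 (19.2% and 16.7% of all genes). The calls of PRPF38B (adjusted p = 0.0702 to 0.236) and LSM11 (0.0668 to 0.0812) each ended in 4 other settings, both without the second EV 10K, the third EV 10K or the first EV 100K library, LSM11 also without the second and PRPF38B without the third EV 100K library. Without the first EV 100K library the counts were 13 lower and 1 higher, and the number higher was also 1 without the second or the third EV 10K library. The 3 pellet comparisons share libraries, so their values are not independent of each other.

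Tested for any difference between the 3 pellets, 32 of the 50 genes passed, where 23.3% of all genes did. By role these were 7 of 8 Sm core genes, 9 of 11 U2 genes, 8 of 10 tri-snRNP and step factors, 3 of 5 U1 genes, 2 of 7 U6 LSm genes, 2 of 6 other LSm genes and 1 of 3 U2AF genes. LSM14B and PRPF38B rose over all 3 pellets with no overlap between neighbours, a layout found in 4.52% of all genes. PRPF6, PRPF8, SF3B2 and U2AF2 were among those that fell in the same manner, a layout of 3.07% of all genes.

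The comparison with whole cells is limited, since the cell library has no replicate. The test set the mean of the 3 pellets against the cell library over 22370 genes, assuming that the lone library varies like the EV libraries. Its p-values rest on the spread of the EV libraries alone and compare them with this 1 library, not with PC3 cells in general. By edgeR's test 4 of 50 were higher and 5 lower in EVs (2.56% and 1.88% of all genes tested), and the median was -0.07 against -0.16. PRPF38B (log2 1.79, SE 0.34, adjusted p = 1.08e-05), LSM14B (1.35, SE 0.35, adjusted p = 0.00508), SNRPD1 (1.32, SE 0.32, adjusted p = 0.00176) and LSM4 (1.24, SE 0.35, adjusted p = 0.0104) were higher. With library totals in place of TMM factors 2 were higher and 10 lower, LSM14B and LSM4 losing their calls, and without the first EV 2.8K library 9 were lower.

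The lower genes were PRPF8 (log2 -1.65, SE 0.26, adjusted p = 2.3e-08), SF3B4, an SF3B subunit that touches the RNA upstream of the branch site (-1.57, SE 0.35, adjusted p = 0.000449), PRPF19 (-1.41, SE 0.31, adjusted p = 0.000388), SF3A1 (-1.17, SE 0.29, adjusted p = 0.00198) and SF3B3 (-0.91, SE 0.28, adjusted p = 0.0336). The SF3B3 call ended in 5 other settings: RLE factors, DESeq2, and without the third EV 10K, the second EV 100K or the third EV 100K library (adjusted p = 0.0567 to 0.115). SF3B4 (chr1:149923317-149928344, minus strand) had 48.4, 77.2 and 63.3 CPM for EV 2.8K, 42.2, 74.0 and 49.2 in EV 10K, 19.7, 25.3 and 24.9 in EV 100K and 128 in cells, so that every EV library lay below the cells. In 7 genes (LSM3, LSM4, LSM8, LSM10, LSM14B, SNRPD1 and SNRPE) all 9 EV libraries were above the cell library, and in 6 (PRPF8, PRPF19, SF3B3, SF3B4, SNRPA and U2AF1) all were below (4.85% and 12.8% of all genes).

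The distance from the cells differed by pellet. The log2 ratio of the mean EV 2.8K level to the cell level was 0.11 for PRPF38B, 0.22 for SNRPD1, 0.35 for LSM14B and -0.36 for LSM11, all near the cell level. For EV 100K the same ratios were 3.06, 2.10, 2.39 and 1.59. In the other direction, the ratio of PRPF31 went from 0.35 in EV 2.8K to -1.84 in EV 100K and that of SF3B2 from 0.04 to -1.76, while PRPF8 was already at -0.55 in EV 2.8K and reached -2.68. SNRPD2 was furthest above the cells in EV 2.8K, at 2.08, and lay at -0.20 in EV 100K. Single pellets were not tested against the 1 cell library.

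**Figure D4:**
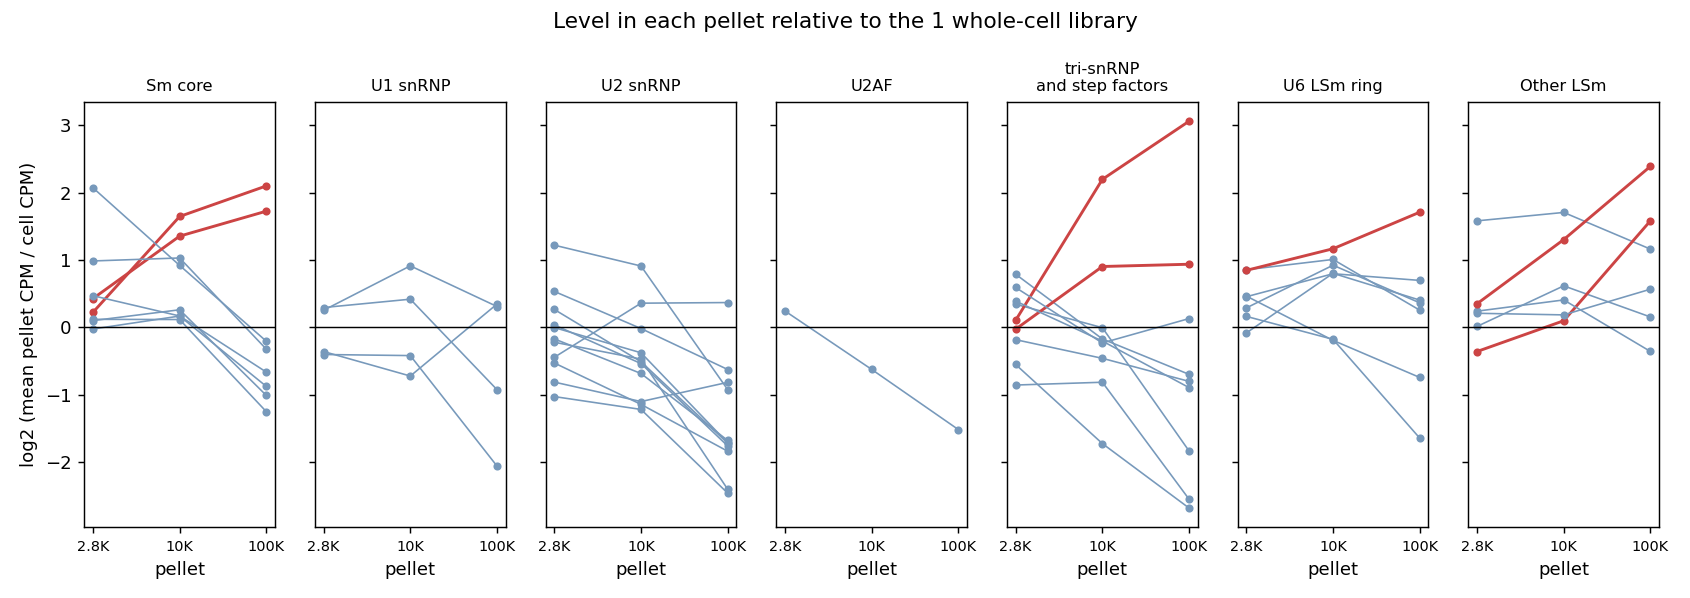
Log2 ratio of the mean level in each pellet to the level in the cell library (y axis) for EV 2.8K, EV 10K and EV 100K (x axis), with 1 line per gene drawn and 1 panel per role. Red lines are the 7 genes that were higher in EV 100K than in EV 2.8K; most other lines drop in EV 100K, and U2AF1, U2AF1L4, U2AF1L5 and PRPF18 are left out because of their low counts.

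These shifts changed the order of the genes. Per kilobase of exon, SNRPB had the highest level of the 51 in cells (175 CPM per kb), in EV 2.8K (172 ± 17.3, SD, n = 3) and in EV 10K (196 ± 13.9). In EV 100K it was the fourth, at 95.2 ± 2.73, behind SNRPD1 (123 ± 43.7), PRPF38B (112 ± 33.5) and SNRPE (101 ± 22.1). These 4 levels lay within the SD of SNRPD1 and did not differ beyond their spread. In cells SNRPD1 ranked 20, PRPF38B 35 and SNRPE 18 of the 51, and LSM14B went from rank 30 in cells to rank 5 in EV 100K (90.7 ± 8.95 CPM per kb). SF3B2, an SF3B subunit, took 11.1% ± 0.728 (SD, n = 3) of the member counts for EV 2.8K, 8.17% ± 0.913 for EV 10K, 4.42% ± 0.681 for EV 100K and 11.4% in cells.

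The genes that rose also differed from those that fell in the form of their mRNAs, which the choice by symbol did not use. In the GENCODE 29 model of each gene's main transcript, the median length of the 3′ untranslated region (UTR) was 1783 bases for the 7 genes higher in EV 100K than in EV 2.8K, 230 for the 25 lower and 755 for the 18 that did not pass. The ranges overlapped: the risers spanned 618 (SNRPE) to 5445 (LSM11) and the fallers reached 2606 (SF3A1). Across the 50 genes the Spearman correlation of the log2 fold change with 3′ UTR length was 0.521, against 0.253 across 11988 protein-coding genes. With transcript length it was 0.165, against 0.239. The risers' median GC content was 41.84% and the fallers' 54.45%, and the correlation with GC content was -0.414 against -0.193. These values describe genes of the same libraries, which are not independent replicates, and 3′ UTR length and GC content were themselves correlated among them (Spearman -0.482), so their parts were not separated.

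**Figure D5:**
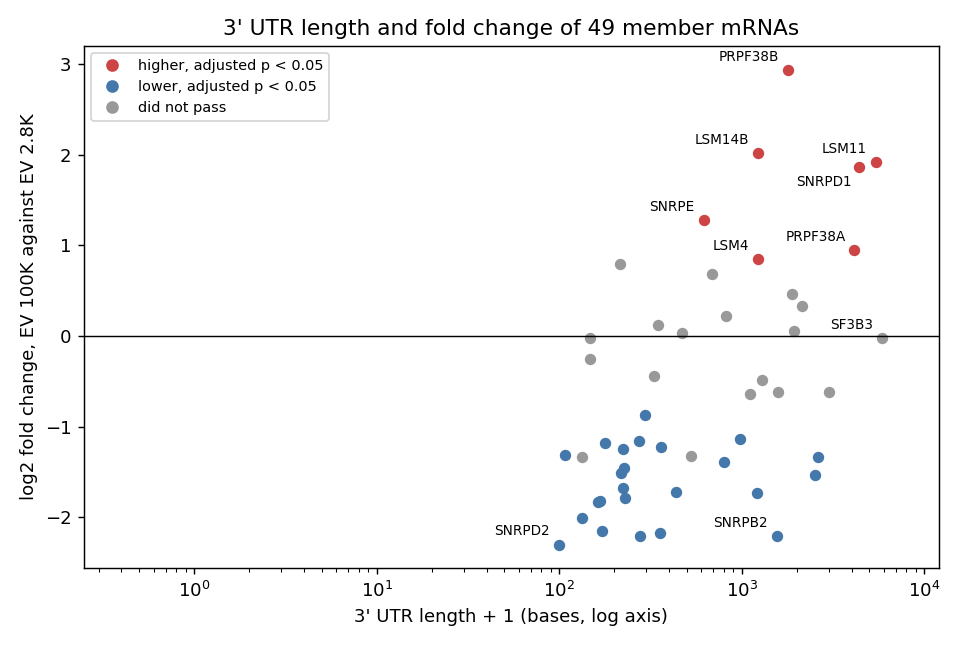
Length of the 3′ UTR plus 1 base (x axis, log scale) against the log2 fold change of EV 100K over EV 2.8K (y axis) for 49 of the 50 tested genes, coloured by call. The 7 higher genes have UTRs of 618 bases or more, and fallers are found over most of the range up to 2606 bases; SF3B3, with 5855 bases, did not change by the test.

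Overlap with other genes was uneven between the calls. None of the 7 risers shares an exon base with another annotated gene, while 13 of the 25 fallers do, as do 21 of all 51 genes, mostly with a gene on the opposite strand. Whether counting used the strand is not stated in the labels, so reads from both partners of such a pair cannot be told apart. Of the fallers this bears, among others, on PRPF31, PRPF8, SF3B2, U2AF2, SNRPD2, SNRPA, SNRPD3, SNRPF, SF3A1, SF3A2 and LSM7. SNRPB overlaps the entry AL049650.1 on the same strand by 256 bases. SNRPB2, SF3B5, SF3B1, SF3A3 and PRPF19 fell and have no such overlap. Sequence copies were a limit for fewer genes: 18 of the 51 had no 50-base window in common with another gene, and 10 had more than 10% in common. Pseudogenes of SNRPE held 6.12 to 54.6% as many counts as SNRPE itself in the different libraries, and those of SNRPG 6.71 to 60.6%, so that the counts of both genes are uncertain. Of the risers, PRPF38B, LSM14B and LSM4 had no shared window, LSM11 had 1.35% and SNRPD1 4.70%.

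Other genes of the pathway were counted in 3 lists, against 13.8% lower, 12.0% higher and a median of -0.06 over all genes tested. Of 57 further spliceosome genes, 24 were lower and 7 higher in EV 100K than in EV 2.8K, with a median of -0.67, the share higher being near that of all genes. The RNA helicase DDX41 fell from 218 ± 61.5 to 45.6 ± 7.46 CPM (log2 -2.28, SE 0.24, adjusted p = 1.89e-06), and the tri-snRNP protein SNRNP27 from 110.1 ± 35.3 to 21.6 ± 4.37 (log2 -2.37, SE 0.29, adjusted p = 7.56e-06). The U5 partners of PRPF8 fell with it, the GTPase EFTUD2 by 1.78 on the log2 scale (adjusted p = 1.11e-05) and the helicase SNRNP200 by 1.55 (adjusted p = 1.23e-05). In contrast the small U5 protein TXNL4A rose from 101 ± 20.4 to 298 ± 36.1 CPM (log2 1.54, SE 0.21, adjusted p = 2.24e-05) and the U2-linked helicase DDX46 from 203 ± 20.1 to 499 ± 118.3 (log2 1.28, SE 0.20, adjusted p = 0.000106).

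Of 19 genes of snRNP assembly and export 3 were higher and 1 lower, with a median of 0.00, and nothing particular to the list is read from these counts. CLNS1A, the chaperone that gathers Sm proteins before they meet the SMN complex, rose from 185 ± 24.0 to 466 ± 54.7 CPM (log2 1.31, SE 0.19, adjusted p = 3.98e-05), and STRAP, an SMN complex partner, from 97.6 ± 22.5 to 257 ± 24.2 (log2 1.38, SE 0.24, adjusted p = 0.000278). The cap-binding gene NCBP2 (log2 0.82, adjusted p = 0.00664) was the third riser, and NCBP1 (-0.81, adjusted p = 0.0462), which lost its call in most other settings, the only faller. Of 5 exon junction genes, MAGOH (-2.61, adjusted p = 2.21e-05), EIF4A3 (-2.20, adjusted p = 5.18e-05) and MAGOHB (-1.92, adjusted p = 0.013) were lower and none was higher. NCBP1, NCBP2 and these 3 genes are named after their values were seen.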

How the data were processed

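Total RNA of 3 vesicle pellets (3 libraries each) and of whole PC3 cells (1 library) was sequenced from SMARTer stranded libraries, per the labels' protocols. The deposited values are whole-number read counts per gene, not normalized by the authors. The tools named in the submitters' processing notes are STAR 2.6.1d, featureCounts 1.6.3, cutadapt 2.7 and bcl2fastq 2.19.1.403, and the build is GRCh38. The annotation, the strand setting and the handling of reads with several positions are not stated in them.

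Groups came from the sample titles. Genes were matched to GENCODE 29 by identifier. The members, roles and partner and marker lists were chosen with earlier results of these data known. Every member may be named, and values per library are given for the 5 highest and 5 lowest fold changes of EV 100K against EV 2.8K among members that passed, for 3 each way in the other comparisons, and for a fixed set of 17. SF3B3 and U2AF1L5 were added after their values were seen. Of the partner genes, the 4 each way with the smallest p are named, and others are marked in the text. A member that is counted in the totals but not drawn or named is not reported here, nor are some markers.

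Differences were tested in R 4.3.3 with edgeR 4.0.16: filterByExpr with a minimum count of 10, TMM factors, and the robust quasi-likelihood F-test with group as the only term, two-sided, with Benjamini-Hochberg adjustment over all genes tested and a threshold of 0.05. Pellets were compared on the 9 EV libraries (15525 genes, 6 residual degrees of freedom), EVs and cells on all 10 (22370 genes). The median prior degrees of freedom, by which the spread is shared over genes, were 11.73 in the pellet fit and infinite in the cell fit. Depth was 5424964 to 28735081 counts, where 3 counts correspond to 0.0862 to 0.551 CPM. CPM values were scaled with TMM factors of all 10 libraries. The procedure was tested on simulated data. Alternatives were RLE factors, library totals, no filter, DESeq2 1.42.0, a replicate block, a fit on the 6 libraries compared and leaving out each EV library. Transcript features and coding sequences came from the GENCODE 29 models (APPRIS principal first), and figures were drawn with matplotlib 3.10.9.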

Additional observations from a re-analysis of the deposited data

How the results depend on the processing

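For EV 100K against EV 2.8K the number of members higher stayed at 6 to 8 and the number lower at 23 to 27 over 15 other settings, and the joint test gave 26 to 32. Of the 32 members called there, 28 were called in every setting. The exceptions were LSM2, LSM7, PRPF38A and SNRPG. Of 23 calls in EV 100K against EV 10K 14 held in every setting, of 7 in EV 10K against EV 2.8K 3, and of 9 in EVs against cells 6. No fold change of a called member reversed in these settings.

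The smaller counts moved, and the cause was not tested. For EV 10K against EV 2.8K the number lower (3) was 7 with library totals, 5 with no filter, 7 with DESeq2, 5 with the replicate block, 1 in the fit on 6 libraries and 1 to 5 when each library was left out. The number higher (4) was 2 in the fit on 6 libraries. For EV 100K against EV 10K leaving out a library gave 1 to 4 higher and 13 to 24 lower. For EVs against cells library totals gave 2 higher and 10 lower, and leaving out a library gave 4 to 9 lower. Library totals also moved the median log2 fold change of all genes to -0.13 in EV 10K against EV 2.8K, -0.20 in EV 100K against EV 2.8K and -0.46 in EVs against cells, so that members must be read relative to it. Among the partner lists, counts of 5 or fewer moved in several settings.

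Any link between libraries of the same set number was weak. Deviations of same-numbered libraries correlated at -0.00907 to 0.0481 across genes in 9 pairs, and those of other numbers at -0.0363 to 0.0299. The range of same-numbered pairs lay slightly higher and overlapped the other, and the difference was not tested. The fit with a replicate block is among the settings above. With 5424964 to 14977955 counts per EV library, U2AF1, U2AF1L5 and PRPF18, with at most 18.6 CPM in any library, had the largest standard errors of the members tested.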

Other observations

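Libraries of a pellet did not take turns evenly over the 50 members tested. The first EV 100K library was the highest of its pellet in 26 members and the lowest in 10, the second the highest in 10 and the lowest in 19, and the third the highest in 14 and the lowest in 21. In EV 2.8K the first library was the highest in 21 members and the third the lowest in 24. The values for PRPF38B, SNRPD1 and SNRPE in the first EV 100K library (858, 851 and 184 CPM) were the highest of their kind.

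Summed over the 6 other LSm genes, levels were 334 ± 52.3 CPM (SD, n = 3) for EV 2.8K, 440.2 ± 36.1 for EV 10K, 604 ± 49.9 for EV 100K and 268 in cells. The 5 U1 genes of the rule, without SNRNP70, summed to 454 ± 39.5, 427 ± 16.1 and 192 ± 15.0 CPM in the same pellets, with 388 in cells. The U6 LSm genes summed to 413 ± 31.7, 499 ± 91.1 and 475 ± 51.6, with 271 in cells.

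Entries annotated as pseudogenes of the members (67 in the table) held 0.70 to 0.756% as many counts as the members in EV 2.8K, 1.46 to 1.96% in EV 10K, 1.54 to 1.82% in EV 100K and 1.34% in cells. The single LSM12 pseudogene held 13.1 to 47.9% as many counts as LSM12 over the 10 libraries.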
